A study of Mus musculus with 12 samples.

Results

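The genes described are 45 genes of mitosis and the spindle, taken by symbol from 43613 named genes or gene groups in the deposited tables. They fall into 7 roles, from the chromosome surface to cytokinesis, and all 45 had a value in each of the 12 libraries. The questions were how far these genes differ between germinal centre (GC) and non-GC B cells of lupus-prone mice, and whether that differs when the type I interferon receptor is missing. Of the 45, 43 reached 1 FPKM (a fragment count scaled by transcript length and library size) in at least 3 libraries and were tested. Melk and Kif20a did not.

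Mitosis runs on a small set of proteins that accumulate late in the cell cycle. Cyclin B with Cdk1 starts it, Plk1 and Aurora kinases build the spindle, kinetochores tie chromosomes to microtubules, and the spindle checkpoint holds back the anaphase-promoting complex until all are attached. GC B cells, which divide in the dark zone of the follicle while mutating their antibody genes, are among the fastest dividing cells of the adult mouse, whereas most splenic B cells outside germinal centres rest. Many mitosis genes are held off in resting cells by a repressor complex, DREAM, and switched on by B-Myb (Mybl2) and Foxm1 at a promoter element called the cell cycle genes homology region (CHR), often with CCAAT boxes bound by NF-Y.

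Spleens came from female mice aged 6 months of 2 genotypes on C57BL/6J: B6.Sle1b, which carries the Sle1b lupus susceptibility interval, and B6.Sle1b.IFNaR1-/- (Ifnar1KO), which carries the same interval and lacks the receptor chain Ifnar1. Both groups therefore share Sle1b, and no mouse without it was included. Live B220+ cells were sorted from splenocyte pools as GC (GL7+ CD95+) or non-GC (GL7- CD95-) B cells, giving 3 libraries in each of 4 groups, 1 per group in each of 3 batches; values below are in the order of batches 1, 2 and 3. A batch is the number that the deposited comparison tables carry. Nothing in the labels ties the 3 libraries of a group to different animals; the p-values here therefore reflect only how these samples scatter, and part of that scatter may be technical.

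Batch 3 stood apart. Of all tested genes, 34.9% to 58.9% were listed at 0 in its libraries, against 12.3% to 26.4% in batches 1 and 2. Summed over 7 B cell markers, its GC libraries held 23.1 and 29.1 FPKM, against 1146 to 2062 in the GC libraries of batches 1 and 2. Its 2 GC libraries also went against their label: 8 GC markers summed to 15.3 (Sle1b) and 12.8 FPKM (Ifnar1KO), below the 18.1 and 28.6 FPKM of its non-GC libraries, while in batches 1 and 2 GC libraries held 222.7 to 738 and non-GC libraries 60.7 to 97.5 FPKM. Results are therefore given with and without batch 3. Ifnar1 itself stood at 14.6, 36.1 and 3.45 FPKM in Sle1b non-GC, 8.12, 9.89 and 6.8 FPKM in Sle1b GC, 51.2, 69.1 and 2.58 FPKM in Ifnar1KO non-GC and 14.1, 15.4 and 0 FPKM in Ifnar1KO GC libraries. In batches 1 and 2 it was thus higher in the libraries labelled Ifnar1KO; the disrupted part of the gene is not given in the sources used here, so a level over the whole locus does not check the genotype. At 1 FPKM a transcript of 1 kb stood for 2.43 to 8.19 reads, depending on the library.

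Promoters are shown first because they carry the element by which this gene class is known. RefSeq promoter windows (GRCm38.p6, 250 bases before to 50 after the start) were present for 40 of the 45 genes, 42 windows in all; Incenp, Tpx2, Ccna2, Kif20a and Aurkb had none. Shown are the 200 bases before the start, on the gene's strand, of the 6 members with the largest GC difference among those written out below that held a CHR before the start. Capitals mark CHR elements (TTTGAA or TTTAAA) and CCAAT boxes, read on either strand.
Mki67: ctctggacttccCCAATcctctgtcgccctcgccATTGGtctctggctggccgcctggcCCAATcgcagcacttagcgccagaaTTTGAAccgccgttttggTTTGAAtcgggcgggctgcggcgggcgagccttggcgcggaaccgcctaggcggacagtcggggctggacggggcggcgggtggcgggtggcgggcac
Top2a: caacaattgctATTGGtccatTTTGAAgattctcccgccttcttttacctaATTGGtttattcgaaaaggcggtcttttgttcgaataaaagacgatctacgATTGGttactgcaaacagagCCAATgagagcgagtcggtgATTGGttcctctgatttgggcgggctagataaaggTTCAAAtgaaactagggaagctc
Ckap2l: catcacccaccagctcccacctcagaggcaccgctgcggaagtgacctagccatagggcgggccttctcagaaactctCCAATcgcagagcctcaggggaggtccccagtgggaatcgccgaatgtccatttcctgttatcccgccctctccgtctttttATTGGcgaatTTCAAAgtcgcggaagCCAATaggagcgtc
Kif15: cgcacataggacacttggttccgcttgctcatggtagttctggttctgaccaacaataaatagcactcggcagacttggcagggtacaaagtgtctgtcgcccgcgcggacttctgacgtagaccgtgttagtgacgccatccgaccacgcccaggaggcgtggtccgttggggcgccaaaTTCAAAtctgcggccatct
Cenpf: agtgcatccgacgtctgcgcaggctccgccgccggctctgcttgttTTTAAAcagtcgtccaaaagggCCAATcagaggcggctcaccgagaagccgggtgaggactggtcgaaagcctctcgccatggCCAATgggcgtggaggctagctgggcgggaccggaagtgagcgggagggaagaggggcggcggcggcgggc
Plk1: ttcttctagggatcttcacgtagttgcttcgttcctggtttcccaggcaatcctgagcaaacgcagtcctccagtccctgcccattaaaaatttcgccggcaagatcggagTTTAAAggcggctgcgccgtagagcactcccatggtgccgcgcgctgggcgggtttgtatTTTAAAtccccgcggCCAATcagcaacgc
These stretches lie at chr7:135716380-135716579 (Mki67, minus strand), chr11:99024190-99024389 (Top2a, minus), chr2:129297213-129297412 (Ckap2l, minus), chr9:122950881-122951080 (Kif15, plus), chr1:189688087-189688286 (Cenpf, minus) and chr7:122159235-122159434 (Plk1, plus).

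Member promoters held these letters more often than promoters at large did, a description without a test. TTTGAA stood in 33 of 42 member windows (78.6%), against 13.5% of the 11133 windows of tested genes and 17.9% of all 32851 windows. TTTGAA or TTTAAA stood in 36 of 42 (85.7%, against 21.1% and 27.6%), and CCAAT in 32 of 42 (76.2%, against 38.2% and 37.4%). A CHR together with a CCAAT box was found in 71.4% of member windows, against 8.2% of tested and 10.7% of all windows, and 2 or more CCAAT boxes in 52.4%, against 14.2% and 11.7%. The E2F form GGCGGGAA was in 0 of 42 windows, 3.8% of tested and 2.2% of all, which says only that these letters are not in these windows. A match is a description of sequence, not a bound site or a cause. CHR matches numbered 54, at a median of -16 bp, of which 25 lay after the start. The 74 CCAAT matches had a median of -63.5 bp, and 3 lay after the start. Ect2 and Prc1 have 2 overlapping windows each, so a match lying in both windows is counted in each.

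**Figure D1:**
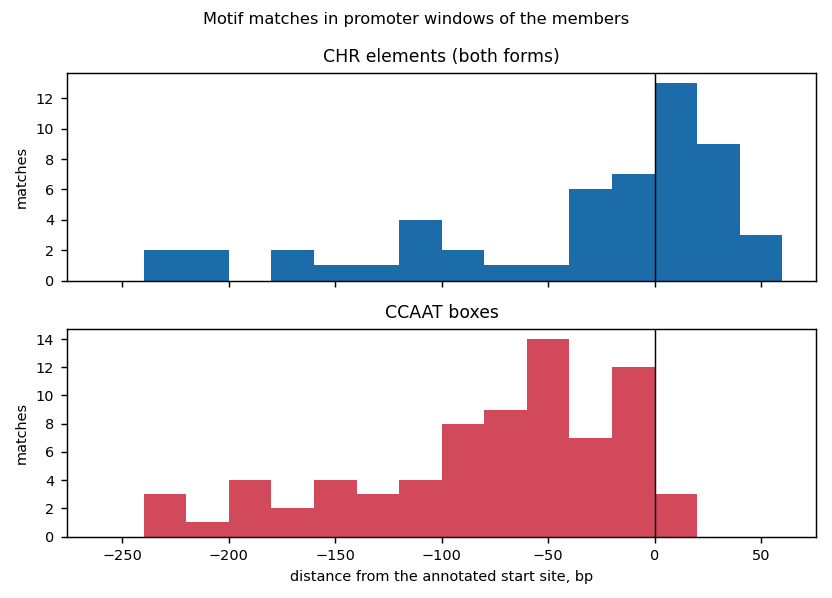
Number of motif matches (vertical axis) in the 42 promoter windows by distance from the annotated start in bp (horizontal axis, 20 bp bins), CHR elements above and CCAAT boxes below. CHR matches gather around the start (median -16 bp) and CCAAT matches upstream of it (median -63.5 bp). Matches in the overlapping windows of Ect2 and of Prc1 are counted in each window.

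Most mitosis genes stood below 1 FPKM in non-GC cells, with Cenpa, Mad2l1, Aurkb, Top2a and Prc1 the highest of those that did not. Members of all 7 roles were higher in GC cells of batches 1 and 2, in both genotypes. Summed over the 45 genes, the non-GC libraries held 53.4, 75.3 and 23.9 FPKM (Sle1b) and 59.6, 84.3 and 68.5 FPKM (Ifnar1KO). The GC libraries held 720.4, 1049 and 111.9 FPKM (Sle1b) and 488.5, 903.5 and 56.5 FPKM (Ifnar1KO). In the GC libraries of batches 1 and 2, 39 to 44 of the 45 genes reached 1 FPKM, and in the non-GC libraries of those batches 11 to 18 did. In batch 3 the count was 9 and 13 in non-GC and 13 and 13 in GC libraries, and the Ifnar1KO GC library lay below its own non-GC library in summed level. In these bulk samples, fewer dividing cells and less mitotic RNA per cell cannot be told apart.

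**Figure D2:**
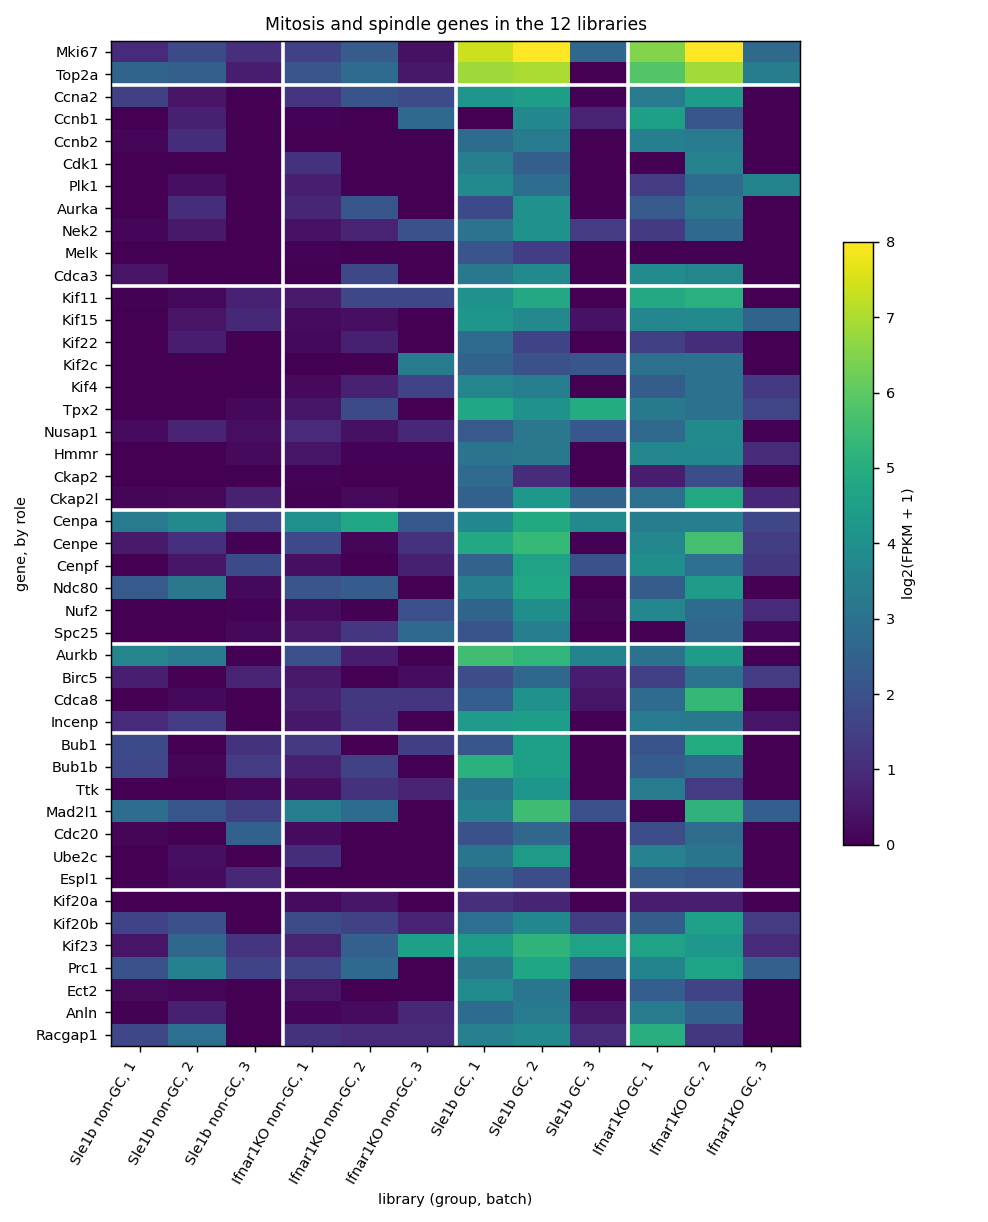
Level of each of the 45 genes (rows, grouped by role between white lines) in each of the 12 libraries (columns, by group and batch), as log2(FPKM + 1) in colour. The GC libraries of batches 1 and 2 are bright in nearly every role. In the batch 3 GC libraries 25 and 26 of the 45 genes are listed at 0, while a few are high, up to 29.5 FPKM (Tpx2, Sle1b) and 11.1 FPKM (Plk1, Ifnar1KO).

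In order of level over the 4 GC libraries of batches 1 and 2, Mki67 led with a median of 211 FPKM (range 90.9 to 259) and Top2a followed with 114 (56.6 to 124). Their ranges overlapped. Cenpe (33.8), Aurkb (29.1) and Kif11 (27.3) came next, each with its whole range below that of Top2a, and overlapping one another. Below them, neighbouring genes overlapped in range down to Melk (0.857) and Kif20a (0.685). Mki67 alone made up 18.6% to 28% of the summed level in these 4 libraries, against 1.81% to 4.58% in the non-GC libraries of the same batches. There the order was another one: Cenpa led with 14.3 FPKM (8.56 to 26.4), ahead of Mad2l1 (6.17) and Aurkb (5.74), and Mki67 was the ninth with 2.23.

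Differences were fitted with limma on log2(FPKM + 1), with batch as a block; a gene passed at a Benjamini-Hochberg adjusted p below 0.05 over all 14608 tested genes. On this scale the difference of low genes is understated. For GC against non-GC as the mean of both genotypes, 2 of 43 tested members were higher and 0 lower, against 0.0137% of all tested genes higher; these 2, Mki67 and Tpx2, were the only genes higher in that fit. At unadjusted p below 0.05, 35 members were higher (4.48% of all genes) and 0 lower (13.0% of all). The median difference over the 43 was 1.71, against -0.25 over all tested genes. It was 1.60 over all 45 without the filter, and 1.70 with the 5 members that have a group listed at 0 throughout set to 3 reads. Of the 43, 11 reached 1 FPKM in GC libraries only and 18 more in just 1 or 2 non-GC libraries, so the filter itself favours a difference and these counts and medians describe the members without supporting a call.

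Within genotypes, no member passed. In Sle1b the count was 0 of 43 (0.0% of all genes higher), with 33 higher at unadjusted p below 0.05 (3.95% of all), 0 lower (5.54% of all) and a median of 2.13 (all genes -0.11). In Ifnar1KO it was 0 of 43 (0.0% of all higher), with 18 higher at unadjusted p below 0.05 (2.22% of all), 0 lower (10.1% of all) and a median of 1.48 (all genes -0.39). Pair by pair, 6 of 43 members were higher in all 6 GC libraries than in the non-GC library of the same batch and genotype: Cenpf, Ckap2l, Kif20b, Mki67, Prc1 and Tpx2 (1.02% of all genes did so). In Sle1b 17 of 43 were higher in all 3 pairs (8.02% of all), and in Ifnar1KO 13 of 43 (3.86% of all). The median member difference was 2.68, 3.08 and 0 in the Sle1b pairs and 2.06, 2.36 and 0 in the Ifnar1KO pairs.

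Without batch 3, and with the filter redone on the remaining 8 libraries, 29 of 43 members rose in GC cells in limma's mean of both genotypes, against 1.81% of all 12260 genes tested there, and none fell (2.77% of all fell). The median was 2.63 (all genes -0.34). This count depends on the filter: with the filter of all 12 libraries kept, 1 of 43 passed (Mki67, adjusted p = 0.0404; 0.00685% of all genes higher); 276 genes with no spread in batches 1 and 2 were then in the fit, and the total degrees of freedom per gene were 4.63 in place of 8.72. Calls of batches 1 and 2 named below are those with the filter redone. That filter, too, can be passed through GC libraries alone. Kif2c and Ckap2l, for example, reached at most 0 and 0.157 FPKM in the non-GC libraries of these batches. It thus favours a difference, and these calls describe the members without supporting one. Counted without any test, 33 of 43 members had all 4 GC libraries of batches 1 and 2 above all 4 non-GC libraries (3.47% of all genes) and 0 had them all below (7.21% of all), while 38 of 43 were higher in all 4 pairs (7.26% of all). Within genotypes on these 2 batches, Mki67 and Top2a rose in Sle1b (2 of 43; 0.0489% of all genes higher) and in Ifnar1KO (2 of 43; 0.122% of all higher), and 0 fell (0.00816% and 0.188% of all); with the filter kept, neither passed in either genotype.

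**Figure D3:**
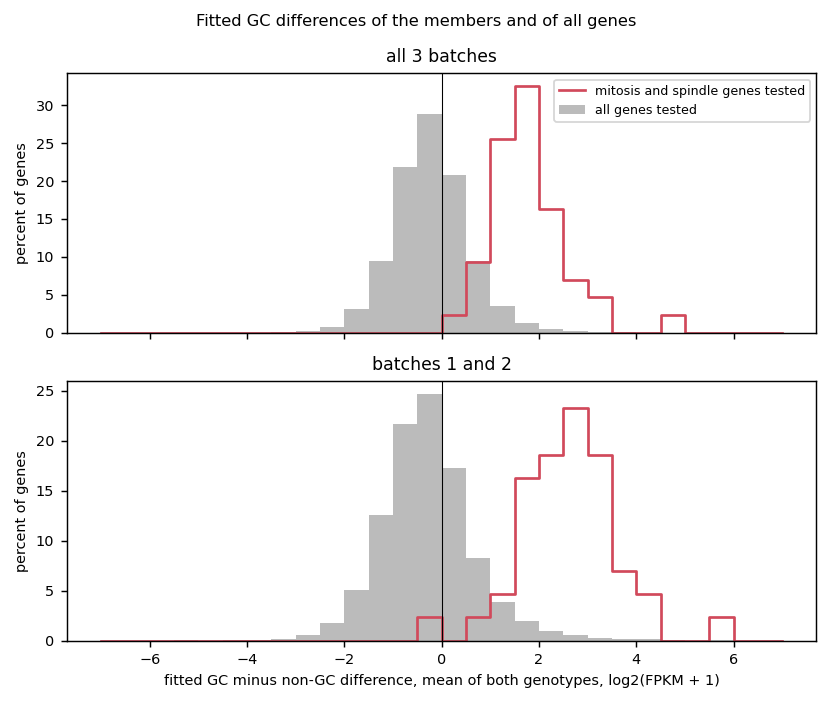
Share of genes in percent (vertical axis) by fitted GC minus non-GC difference on log2(FPKM + 1), mean of both genotypes (horizontal axis), for all genes tested (grey bars) and the 43 tested members (red line), with all batches above and batches 1 and 2 below. The members' medians are 1.71 and 2.63, against -0.25 and -0.34 for all genes.

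Marker levels of other cell types varied between groups as well. Over 8 T cell markers the groups summed to 8.97 to 25.7 (Sle1b non-GC), 20.4 to 73.7 (Sle1b GC), 8.2 to 23.2 (Ifnar1KO non-GC) and 16.9 to 27.4 FPKM (Ifnar1KO GC), with Cd3g and Cd8a at 0 throughout Sle1b non-GC and Ifnar1KO GC. The 73.7 FPKM was in the Sle1b GC library of batch 3, where the 7 B cell markers summed to 23.1 FPKM. In the Ifnar1KO GC library of batch 3 the T cell sum was 27.4 and the B cell sum 29.1 FPKM. Over 8 myeloid markers the ranges were 2.83 to 22.2, 8.04 to 165.3, 1.1 to 26.0 and 0.0681 to 12.8 FPKM in the same order, with the high end in the Sle1b GC library of batch 1, and Cd14 at 0 throughout every group but Sle1b GC. Over 6 NK markers the ranges were 8.55 to 28.9, 0 to 9.97, 3.19 to 18.6 and 0 to 1.42 FPKM, with Prf1 and Gzma at 0 throughout both GC groups. Over 9 erythroid markers they were 0.608 to 33.9, 4.88 to 90.9, 0.916 to 45.3 and 3.43 to 53.0 FPKM, with Klf1 and Epor at 0 throughout every group but Sle1b GC. In batch 1 the sum was 90.9 in GC against 19.3 in non-GC (Sle1b) and 53.0 against 37.5 FPKM (Ifnar1KO). Over 7 plasma cell markers they were 3.76 to 98.6, 7.66 to 129.6, 6.82 to 87.8 and 0.481 to 136.5 FPKM, with Tnfrsf17 at 0 throughout every group but Sle1b GC. The part of such cells in the mitosis levels was not tested. Over 6 resting B cell markers, batches 1 and 2 held 1979 and 1944 (Sle1b GC) and 1482 and 2659 FPKM (Ifnar1KO GC), against 2892 and 4710 (Sle1b non-GC) and 3233 and 3781 FPKM (Ifnar1KO non-GC). Over 8 reference genes used to judge libraries, GC libraries of batches 1 and 2 also summed to less than their non-GC partners, at 2205 against 3073 and 1274 against 2885 (Sle1b) and 1699 against 2538 and 936.4 against 1766 FPKM (Ifnar1KO). Gene by gene, 3 of the 8 were above 0 and 5 below as the mean of both genotypes with all batches. Their median was -0.408 without batch 3. Only B2m passed there, falling by 1.77 (SE 0.267, limma adjusted p = 0.0164), against 2.77% of all genes that fell. The part of this in the mitosis levels was not tested either. Of 8 GC B cell markers, all 8 reached 1 FPKM in each GC library of batches 1 and 2 and 4 in each non-GC library of those batches.

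The 2 genes of the chromosome surface and topology had the largest median difference of the 7 roles (3.85 as the mean of both genotypes), although Tpx2 (3.22) exceeded Top2a (3.13) with all batches. Mki67 (chr7:135689788-135716379 in mm10) encodes Ki-67, the coat that keeps mitotic chromosomes apart and the classic marker of cycling cells. It stood at 0.966, 2.49 and 1.11 FPKM in Sle1b non-GC, 1.97, 3.87 and 0.284 in Ifnar1KO non-GC, 168.3, 258.6 and 5.54 in Sle1b GC and 91.0, 252.8 and 5.86 FPKM in Ifnar1KO GC libraries. Every GC library, batch 3 included, lay above every non-GC library, which held for 2 of 43 members (Mki67 and Ckap2l) and 0.137% of all genes. Mki67 rose by 4.56 on the log2(FPKM + 1) scale (SE 0.618, adjusted p = 0.0314, higher in 6 of 6 pairs) as the mean of both genotypes, and by 5.83 (SE 0.316, adjusted p = 0.000338) without batch 3. The call with all batches was lost when any 1 library of batch 1 or 2 was left out (adjusted p at most 0.167). Top2a (chr11:98992943-99024189) encodes topoisomerase II alpha, which untangles sister chromatids. Its level was 5.0, 4.34 and 0.555 FPKM in Sle1b non-GC, 3.35, 5.89 and 0.444 in Ifnar1KO non-GC, 111.6, 124.3 and 0 in Sle1b GC and 56.6, 117.3 and 9.2 in Ifnar1KO GC. The single 0, in the batch 3 library of Sle1b GC, allows up to 0.175 FPKM at 3 reads, and the other 5 GC libraries lay above all non-GC libraries. The difference was 3.13 (SE 0.643, adjusted p = 0.0774), and Top2a passed without batch 3 (4.15, SE 0.335, adjusted p = 0.00238).

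Among the 9 mitotic entry cyclins and kinases, all 8 tested were above 0 (median 1.497), none passed with all batches, and 5 rose without batch 3: Ccna2, Ccnb2, Plk1, Nek2 and Cdca3. Cdca3, an F-box-like protein that helps degrade the Cdk1 inhibitor Wee1, stood at 0.343, 0 and 0 FPKM in Sle1b non-GC, 0, 2.33 and 0 in Ifnar1KO non-GC, 8.21, 13.0 and 0 in Sle1b GC and 13.6, 11.6 and 0 in Ifnar1KO GC. All 4 GC libraries of batches 1 and 2 were high and all 4 libraries of batch 3 were at 0. The fitted difference was 2.06 (SE 0.575, adjusted p = 0.126), or 3.09 (SE 0.527, adjusted p = 0.0212) without batch 3. Plk1, the polo-like kinase that drives spindle assembly and mitotic exit, was listed at 0, 0.268 and 0 FPKM in Sle1b non-GC, 0.589, 0 and 0 in Ifnar1KO non-GC, 12.9, 6.35 and 0 in Sle1b GC and 1.63, 6.09 and 11.1 in Ifnar1KO GC. In 5 of 6 GC libraries it lay above every non-GC library, though at only 1.63 FPKM in Ifnar1KO GC of batch 1. Here the batch 3 library of Ifnar1KO GC was among the high ones. Its difference was 2.25 (SE 0.614, adjusted p = 0.12), or 2.47 (SE 0.537, adjusted p = 0.0407) without batch 3. Aurka, the centrosomal Aurora kinase, showed the smallest difference of the role. Its values were 0, 1.07 and 0 FPKM in Sle1b non-GC, 0.828, 3.4 and 0 in Ifnar1KO non-GC, 2.5, 15.4 and 0 in Sle1b GC and 3.73, 7.98 and 0 in Ifnar1KO GC, so the Sle1b GC library of batch 1 fell within the range of non-GC libraries. The fitted difference was 1.20 (SE 0.445, adjusted p = 0.205). Cyclin B1 (Ccnb1) was uneven: it was listed at 0 in 1 of the 4 GC libraries of batches 1 and 2 and reached 22.6 FPKM in another. Cdk1 was listed at 0 in all 3 Sle1b non-GC libraries, in both batch 3 GC libraries and in the Ifnar1KO GC library of batch 1, and reached 4.36 to 10.6 FPKM in the other 3 GC libraries. In Ifnar1KO non-GC it stood at 1.265, 0 and 0 FPKM, so the Ifnar1KO pair of batch 1 ran the other way (-1.179). Melk stayed at or below 3.31 FPKM and was above 0.1 FPKM in the Sle1b GC libraries of batches 1 and 2 alone.

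All 10 spindle kinesins and microtubule factors were above 0 (median 2.08); Tpx2 rose with all batches and 8 rose without batch 3, Kif22 and Ckap2 being the exceptions. Tpx2 (chr2:152847710-152895321), which activates Aurora A on spindle microtubules, stood at 0, 0 and 0.121 FPKM in Sle1b non-GC, 0.36, 2.51 and 0 in Ifnar1KO non-GC, 25.9, 16.2 and 29.5 in Sle1b GC and 8.37, 7.09 and 2.21 in Ifnar1KO GC. It was high in the Sle1b GC library of batch 3 as well, where most members were at 0, and lower in each Ifnar1KO GC library than in each Sle1b GC library. Tpx2 rose by 3.22 (SE 0.446, adjusted p = 0.0314, higher in 6 of 6 pairs) and by 3.21 (SE 0.508, adjusted p = 0.0175) without batch 3; with all batches its call held in 1 of 12 fits that each left out a library, the one without Ifnar1KO GC of batch 3 (adjusted p 0.047 to 0.167 over the 12). Ckap2l, a microtubule-binding protein of the spindle and midbody, was at 0.1, 0.122 and 0.677 FPKM in Sle1b non-GC, 0, 0.157 and 0 in Ifnar1KO non-GC, 4.58, 18.4 and 4.94 in Sle1b GC and 6.71, 27.8 and 0.893 in Ifnar1KO GC. Every GC library lay above every non-GC library. Its difference was 2.80 (SE 0.537, adjusted p = 0.0737), or 3.51 (SE 0.533, adjusted p = 0.0164) without batch 3. Kif15, a kinesin that can hold spindle poles apart beside Kif11, was at 0, 0.351 and 0.907 FPKM in Sle1b non-GC, 0.179, 0.25 and 0 in Ifnar1KO non-GC, 17.9, 12.7 and 0.309 in Sle1b GC and 12.1, 13.3 and 4.99 in Ifnar1KO GC. The 4 GC libraries of batches 1 and 2 were close to one another, and the difference was 2.77 (SE 0.556, adjusted p = 0.0774), or 3.64 (SE 0.455, adjusted p = 0.0104) without batch 3. Kif11, the motor that separates the poles, rose without batch 3 by 4.09 (SE 0.433, adjusted p = 0.00543), from 0.0318 to 2.22 FPKM in the 4 non-GC libraries to 16.1 to 32.7 FPKM in the 4 GC libraries. Kif22, a chromosome arm motor, was at 0, 0.576 and 0 FPKM in Sle1b non-GC, 0.127, 0.615 and 0 in Ifnar1KO non-GC, 5.96, 2.06 and 0 in Sle1b GC and 1.87, 1.05 and 0 in Ifnar1KO GC. All 4 GC libraries of batches 1 and 2 lay above all 4 non-GC libraries, as for 33 of 43 members (3.47% of all genes). Its difference was 0.908 (SE 0.406, adjusted p = 0.273), or 1.36 (SE 0.483, adjusted p = 0.131) without batch 3.

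**Figure D4:**
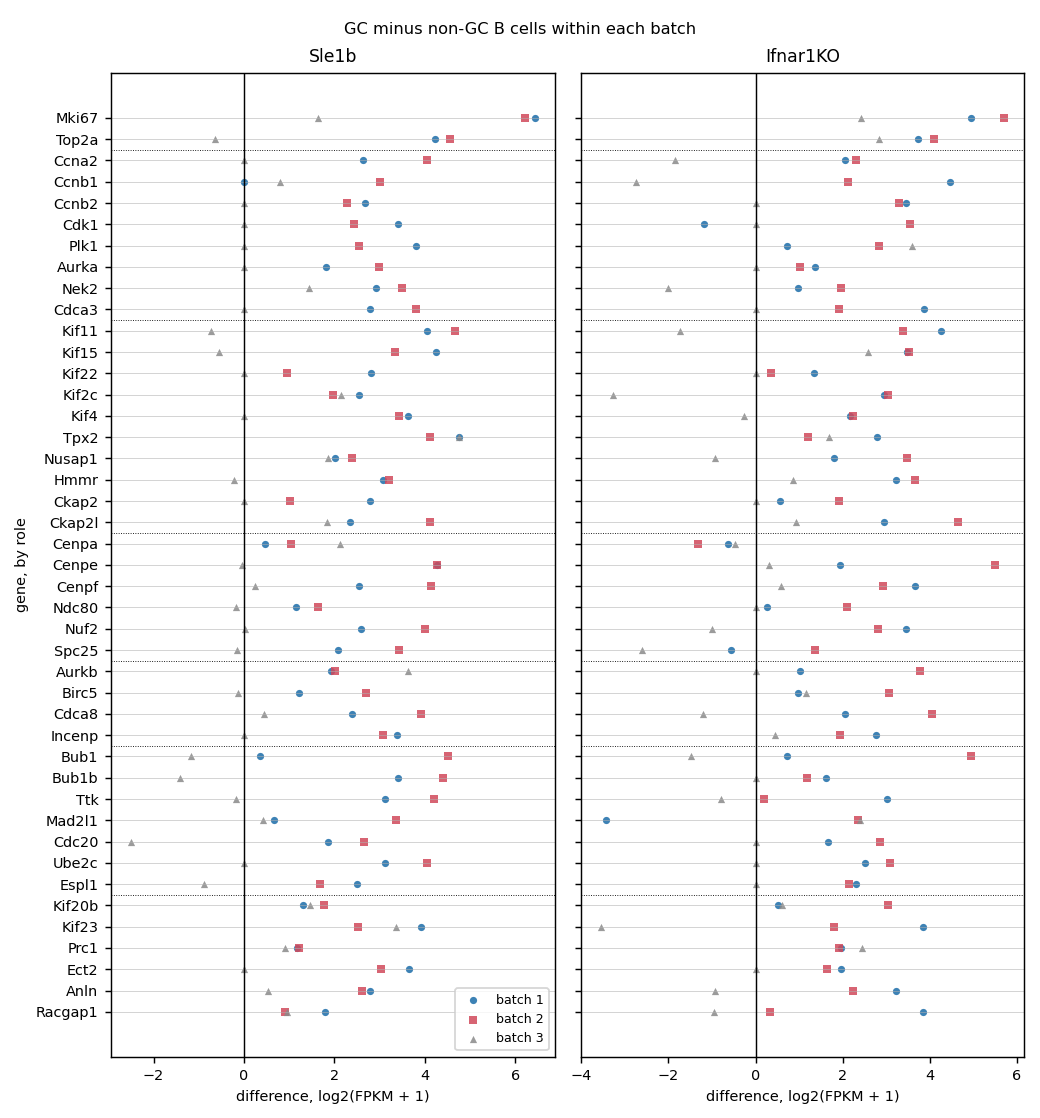
GC minus non-GC difference on log2(FPKM + 1) (horizontal axis) for each of the 43 tested genes (vertical axis, dotted lines between roles), by batch (blue circles 1, red squares 2, grey triangles 3), Sle1b left and Ifnar1KO right. Batches 1 and 2 lie mostly to the right of 0, with medians of 2.68 and 3.08 in Sle1b and 2.06 and 2.36 in Ifnar1KO, while batch 3 scatters around 0.

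Of the 6 centromere and kinetochore genes, all were above 0 as the mean of both genotypes (median 1.40), none passed, and 3 rose without batch 3: Cenpe, Cenpf and Nuf2. Cenpe, the kinetochore motor that brings chromosomes to the spindle equator, stood at 0.479, 1.12 and 0.031 FPKM in Sle1b non-GC, 2.4, 0.108 and 1.2 in Ifnar1KO non-GC, 27.6, 40.0 and 0 in Sle1b GC and 12.1, 49.0 and 1.71 in Ifnar1KO GC. The gap between cell types was wide in batches 1 and 2 and absent in the Sle1b pair of batch 3. The fitted difference was 2.71 (SE 0.71, adjusted p = 0.113), or 4.00 (SE 0.583, adjusted p = 0.0148) without batch 3. Cenpf, a large coiled-coil protein of the outer kinetochore, was at 0, 0.389 and 2.44 FPKM in Sle1b non-GC, 0.263, 0 and 0.622 in Ifnar1KO non-GC, 4.8, 23.5 and 3.08 in Sle1b GC and 14.9, 6.54 and 1.43 in Ifnar1KO GC. It was higher in 6 of 6 pairs, with a difference of 2.35 (SE 0.596, adjusted p = 0.113), or 3.31 (SE 0.596, adjusted p = 0.0245) without batch 3. Cenpa, the histone H3 variant that marks centromeres, had the smallest difference of all. It stood at 8.56, 13.2 and 2.21 FPKM in Sle1b non-GC, 15.3, 26.4 and 3.58 in Ifnar1KO non-GC, 12.2, 28.2 and 13.0 in Sle1b GC and 9.48, 10.04 and 2.28 in Ifnar1KO GC. GC and non-GC libraries overlapped, GC being higher in all 3 Sle1b pairs and lower in all 3 Ifnar1KO pairs, where 19.2% of all genes were lower in every pair. The mean difference was 0.20 (SE 0.38, adjusted p = 0.817). Spc25, a subunit of the Ndc80 complex that grips microtubules, was the other member below 0 in Ifnar1KO, at -0.60 (adjusted p = 0.782).

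The 4 members of the chromosomal passenger complex, which corrects faulty attachments and later steers cytokinesis, were all above 0 (median 1.94); none passed, and Aurkb, Cdca8 and Incenp rose without batch 3. Aurkb, its kinase, stood at 11.4, 8.57 and 0 FPKM in Sle1b non-GC, 2.91, 0.561 and 0 in Ifnar1KO non-GC, 45.5, 37.8 and 11.3 in Sle1b GC and 6.9, 20.3 and 0 in Ifnar1KO GC. The cell types overlapped across genotypes, since Sle1b non-GC cells of batches 1 and 2 held more than the Ifnar1KO GC library of batch 1. Its difference was 2.06 (SE 0.489, adjusted p = 0.0949), or 2.18 (SE 0.487, adjusted p = 0.0442) without batch 3. Cdca8 (borealin), a targeting subunit, was at 0, 0.125 and 0 FPKM in Sle1b non-GC, 0.668, 1.44 and 1.3 in Ifnar1KO non-GC, 4.27, 15.8 and 0.361 in Sle1b GC and 5.92, 39.2 and 0 in Ifnar1KO GC. Batch 2 GC libraries were the highest of both genotypes, and the difference was 1.94 (SE 0.628, adjusted p = 0.16), or 3.10 (SE 0.543, adjusted p = 0.0229) without batch 3. Birc5 (survivin) was the smallest of the complex, at 0.583, 0 and 0.698 FPKM in Sle1b non-GC, 0.459, 0 and 0.205 in Ifnar1KO non-GC, 2.68, 5.5 and 0.545 in Sle1b GC and 1.89, 7.31 and 1.67 in Ifnar1KO GC. Its difference of 1.495 (SE 0.452, adjusted p = 0.141) did not pass without batch 3 either (1.99, SE 0.528, adjusted p = 0.0669).

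Of the 7 genes of the spindle checkpoint and anaphase, all were above 0 (median 1.31), none passed, and 5 rose without batch 3: Bub1b, Ttk, Cdc20, Ube2c and Espl1. Ube2c, the ubiquitin-conjugating enzyme of the anaphase-promoting complex, was at 0, 0.229 and 0 FPKM in Sle1b non-GC, 1.07, 0 and 0 in Ifnar1KO non-GC, 7.68, 19.4 and 0 in Sle1b GC and 10.8, 7.55 and 0 in Ifnar1KO GC. It was at 0 in all 4 libraries of batch 3; the difference was 2.13 (SE 0.582, adjusted p = 0.12), or 3.19 (SE 0.53, adjusted p = 0.0209) without that batch. Ttk (Mps1), the kinase that starts the checkpoint signal, was at 0, 0 and 0.124 FPKM in Sle1b non-GC, 0.195, 1.28 and 0.742 in Ifnar1KO non-GC, 7.71, 17.4 and 0 in Sle1b GC and 8.72, 1.61 and 0 in Ifnar1KO GC. The Ifnar1KO GC library of batch 2 lay only just above its non-GC partner, and the difference was 1.60 (SE 0.613, adjusted p = 0.216), or 2.64 (SE 0.597, adjusted p = 0.0461) without batch 3. Mad2l1 (Mad2), which binds and restrains Cdc20, had the smallest difference of the role, with 6.21, 3.39 and 1.87 FPKM in Sle1b non-GC, 9.81, 6.14 and 0 in Ifnar1KO non-GC, 10.4, 44.3 and 2.85 in Sle1b GC and 0, 35.6 and 4.3 in Ifnar1KO GC. Both GC libraries of batch 2 were high and the Ifnar1KO GC library of batch 1 was at 0; the difference was 0.963 (SE 0.718, adjusted p = 0.506), and 0.737 (SE 0.897, adjusted p = 0.65) without batch 3.

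Of the 7 midzone and cytokinesis genes, all 6 tested were above 0 (median 1.66), none passed, and Kif23, Ect2 and Anln rose without batch 3. Kif23 (MKLP1), the motor subunit of the centralspindlin complex, stood at 0.372, 5.35 and 1.38 FPKM in Sle1b non-GC, 0.691, 4.5 and 22.0 in Ifnar1KO non-GC, 19.6, 35.5 and 23.3 in Sle1b GC and 23.4, 18.2 and 0.971 in Ifnar1KO GC. The Sle1b pair of batch 3 followed the other batches and the Ifnar1KO pair of batch 3 ran the other way; the difference was 1.98 (SE 0.718, adjusted p = 0.199), or 3.02 (SE 0.501, adjusted p = 0.0209) without batch 3. Racgap1, its partner, was at 2.26, 6.54 and 0 FPKM in Sle1b non-GC, 1.27, 0.926 and 0.921 in Ifnar1KO non-GC, 10.2, 13.1 and 0.934 in Sle1b GC and 31.5, 1.44 and 0 in Ifnar1KO GC. Its 2 Ifnar1KO GC libraries of batches 1 and 2 lay far apart, and the difference was 1.15 (SE 0.635, adjusted p = 0.363). Anln (anillin), a scaffold of the contractile ring, was at 0.0281, 0.621 and 0 FPKM in Sle1b non-GC, 0.0905, 0.177 and 0.906 in Ifnar1KO non-GC, 6.12, 8.96 and 0.438 in Sle1b GC and 9.1, 4.55 and 0 in Ifnar1KO GC. GC libraries of batches 1 and 2 were all above the non-GC ones, with a difference of 1.74 (SE 0.544, adjusted p = 0.149), or 2.71 (SE 0.483, adjusted p = 0.0241) without batch 3. Prc1, the antiparallel microtubule bundler of the midzone, was higher in 6 of 6 pairs from a raised non-GC level: 3.05, 10.4 and 2.02 FPKM in Sle1b non-GC, 2.12, 5.61 and 0 in Ifnar1KO non-GC, 8.15, 25.6 and 4.62 in Sle1b GC and 11.2, 23.8 and 4.42 in Ifnar1KO GC. The groups overlapped across batches, and the difference was 1.60 (SE 0.354, adjusted p = 0.0871). Kif20a stayed at or below 1.11 FPKM in every library.

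The authors' deposited tables, which compare 1 library with 1 library, give q-values of their own. There, 13 of 42 member loci in the authors' deposited tables were higher in GC at q below 0.05 for Sle1b batch 2 (0.682% of all named loci tested), among them Mki67, Tpx2, Cdk1, Ttk and Nuf2, and 0 of 12 for Sle1b batch 3 (6.05% of all). For Ifnar1KO the count in the authors' deposited tables was 2 of 38 (batch 1; 0.453% of all), 1 of 38 (batch 2; 0.263% of all) and 3 of 17 (batch 3; 3.0% of all). None of the tables compares GC with non-GC cells of Sle1b in batch 1 directly, and no member was lower in any of these tables.

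No member differed between the genotypes past the threshold. In GC cells none passed for Ifnar1KO against Sle1b (0 of 43, limma; 0.0% of all genes in either direction); at unadjusted p below 0.05, 0 members were higher (1.25% of all) and 3 lower (5.31% of all), namely Aurkb, Tpx2 and Cenpa. The median difference was -0.27, next to -0.25 over all genes, and its sign depended on scaling: with each library centred on its median it was 0.12, next to 0.13 over all genes. In non-GC cells the count was also 0 of 43 (0.0% of all in either direction), with 0 members higher (0.801% of all) and 0 lower (0.863% of all) at unadjusted p below 0.05, and a median of 0.14 (all genes 0.01). Without batch 3 no member passed in either cell type (0.0% of all genes in non-GC, 0.00816% in GC cells). The interaction, which asks whether the GC difference itself differs between genotypes, passed for 0 of 43 members (0.0% of all in either direction); at unadjusted p below 0.05, 0 members were higher (0.698% of all) and 3 lower (3.05% of all), namely Tpx2, Cenpa and Nek2. These results do not show that the genotypes are alike: for Mki67 in GC cells, the difference was -0.28 with an SE of 0.874.

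**Figure D5:**
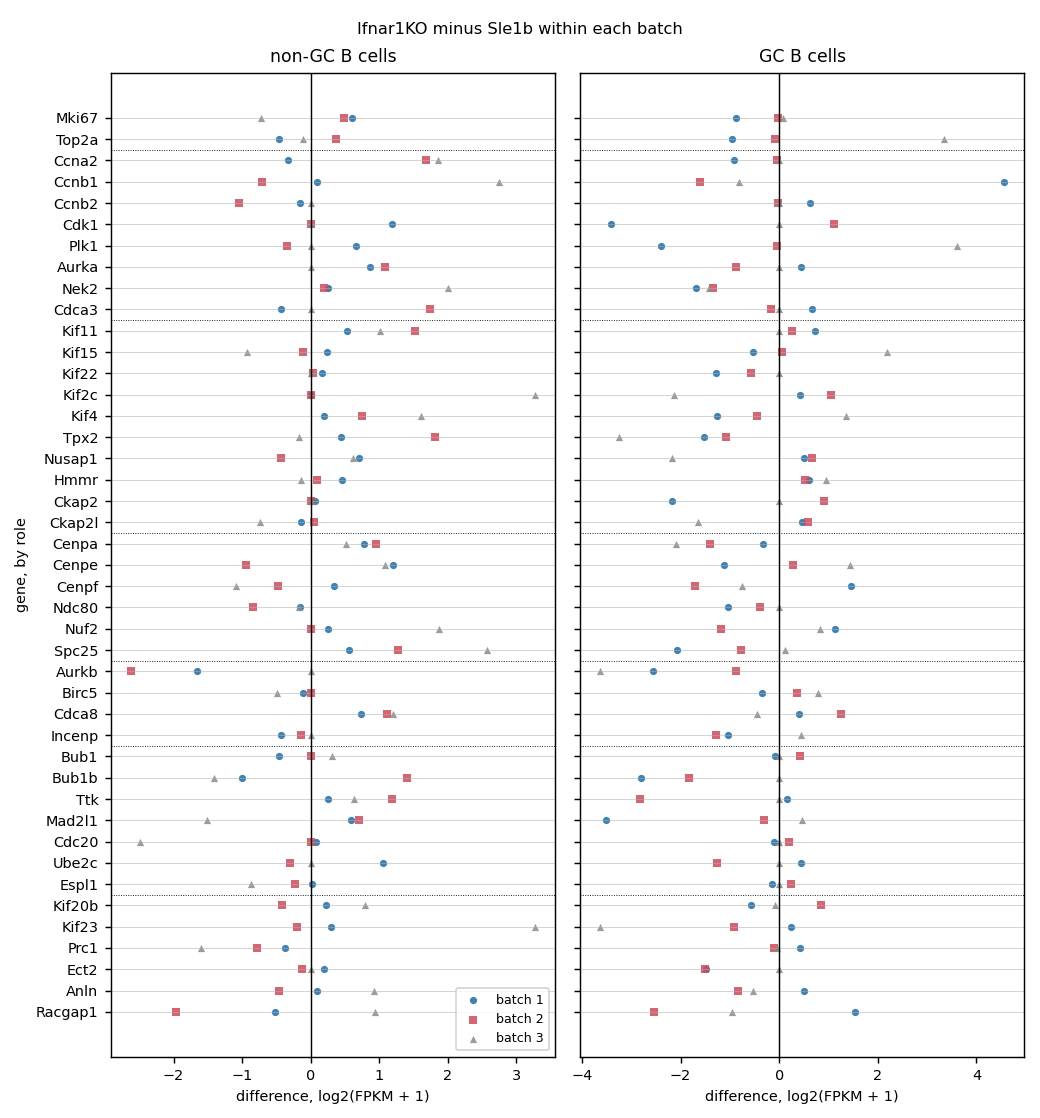
Ifnar1KO minus Sle1b difference on log2(FPKM + 1) (horizontal axis) for each of the 43 tested genes (vertical axis, dotted lines between roles), by batch, non-GC left and GC right. Points fall on both sides of 0 in each batch, with medians of -0.34, -0.16 and 0 in GC cells and 0.20, 0 and 0 in non-GC cells.

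With all batches, Aurkb, Tpx2 and Cenpa had the lowest unadjusted p for a genotype difference in GC cells, all without passing. For Aurkb the difference of Ifnar1KO against Sle1b was -2.35 (SE 0.692, unadjusted p = 0.00493, limma adjusted p = 0.727). Aurkb was lower in 3 of 3 GC pairs, as were 4 of 43 members and 12.7% of all genes. In non-GC cells the difference was -1.43 (SE 0.692), lower in batches 1 and 2 and at 0 in both libraries of batch 3. An estimated 276, 324 and 69 reads stood behind Aurkb in Sle1b GC and 55, 89 and 0 in Ifnar1KO GC. For Tpx2 it was -1.95 (SE 0.63, unadjusted p = 0.00866, limma adjusted p = 0.741), and for Cenpa -1.28 (SE 0.538, unadjusted p = 0.034, limma adjusted p = 0.741). For both, all 3 Ifnar1KO GC libraries lay below all 3 Sle1b GC libraries (2 of 43 members, against 2.6% of all genes). In batches 1 and 2 alone (filter redone) the genotype difference of Aurkb in GC cells was -1.71 (SE 0.688). It was -1.31 (SE 0.718) for Tpx2 and -0.871 (SE 0.495) for Cenpa. At limma unadjusted p below 0.05, 4 members were then lower and 0 higher, none passing. They were Bub1b (-2.31, SE 0.754), which had the lowest p, Aurkb, Ect2 (-1.50, SE 0.628) and Nek2 (-1.51, SE 0.654). With the filter kept, Aurkb dropped out and Ect2 had the lowest p. With all batches, the largest interactions on the low side were -2.65 (SE 0.891) for Tpx2 and -2.56 (SE 1.44) for Kif23. On the high side they were 1.01 (SE 0.707) for Prc1 and 0.84 (SE 1.11) for Kif15. The limma adjusted p was 0.992 for each. Without batch 3 these interactions were -2.43 (Tpx2), -0.389 (Kif23), 0.737 (Prc1) and -0.298 (Kif15). The lowest and highest were then those of Mad2l1 (-2.55) and Ccnb1 (1.79). By the q-value of the authors' deposited tables, 1 of 14 member loci was higher in Ifnar1KO GC of batch 3 (Plk1; 2.57% of all loci tested) and 1 of 11 in Ifnar1KO non-GC of batch 3 (Nek2; 5.03% of all), and 0 in batches 1 and 2.

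Lists of other genes of the pathway showed how far the difference reached. Over all genes tested, 35.7% were above 0 as the mean of both genotypes with all batches, and 1.81% rose and 2.77% fell without batch 3. Of 91 other mitosis genes, 85 were tested with all batches; 73 were above 0 (median 0.938) and 0 passed. Without batch 3, 15 of 83 tested rose and 0 fell. The list's largest differences were those of Cenph, a kinetochore subunit, at 874 FPKM in the Ifnar1KO GC library of batch 3 alone and at most 34.0 elsewhere (3.93, SE 1.04, adjusted p = 0.114), and the cytokinesis kinase Cit (2.84, SE 0.62, adjusted p = 0.0852). Of 18 condensin and cohesin genes, 8 were above 0 (median -0.23); 0 passed with all batches, and 4 rose without batch 3. These were the condensin subunits Ncapd2 (3.23), Ncapg (2.80), Ncapg2 (2.30) and Ncaph (2.77). The 17 genes of the anaphase-promoting complex and its enzymes, which resting cells also use, had 6 above 0 (median -0.395), and 0 passed in either fit; the largest differences were those of Ube2d1 (-1.96, SE 0.439, adjusted p = 0.09) and Anapc1 (-1.05, SE 0.498, adjusted p = 0.293).

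Among 24 regulators of G2/M transcription, 14 were above 0 (median 0.334), 0 passed with all batches and 6 rose without batch 3. These were Mybl1 (5.89), E2f8 (4.08), Tfdp1 (2.99), E2f7 (2.82), Mybl2 (2.71) and a locus that joins Foxm1 with 4933413G19Rik (2.02). Mybl1 (A-Myb), also a marker of GC B cells, stood at 2.69, 3.27 and 1.86 FPKM in Sle1b non-GC, 0.575, 1.34 and 0 in Ifnar1KO non-GC, 139.2, 365.4 and 1.36 in Sle1b GC and 67.4, 203.6 and 0 in Ifnar1KO GC. Its GC libraries of batches 1 and 2 were far above all others, and those of batch 3 were not. E2f7, an atypical E2F that represses, was high in all 6 GC libraries, with 2.87, 19.6 and 4.01 FPKM in Sle1b and 4.74, 5.78 and 8.38 in Ifnar1KO, against at most 0.51 in non-GC; its difference was 2.71 (SE 0.447, adjusted p = 0.0577). Of 17 G1 cyclins and CDK inhibitors, 13 were tested and 6 were above 0 (median -0.039); 0 passed with all batches, and 2 fell without batch 3. These were the inhibitor Cdkn1b (p27), which fell by 2.22, and the antiproliferative gene Btg1, which fell by 1.42.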

How the data were processed

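Libraries were made with a SMARTer low-input kit and Nextera XT, per the labels' protocols; these mark no strand, so overlapping antisense genes cannot be told apart. The submitters' processing notes name TopHat2 2.0.9, Bowtie2 2.1.0, Cufflinks 2.2.1 and Cuffdiff, with builds GRCm38 and mm10. The 17 deposited tables each compare 1 library with another of its batch and hold FPKM as the authors computed it, with the authors' deposited q-value per locus. A library's FPKM differed between tables by a constant factor, at most 0.7 on the log2 scale; tables were joined within a batch by least squares on these factors, loci of 1 gene were summed, and 9 failed genes were dropped. Tests used limma 3.58.1 in R 4.3.3 on log2(FPKM + 1), genes at 1 FPKM or more in 3 or more libraries, batch as a block (6 residual degrees of freedom, 3 without batch 3). The tables pair libraries within batches: deviations from group means correlated at 0.289 or more within each batch, though libraries of batches 1 and 2 also correlated with each other at up to 0.455, above the lowest values within those batches (0.289 and 0.401). No 2 libraries were identical (highest correlation 0.927). Whole reads were recovered from unnamed low loci (100.0% within 0.1 read), which gave each library's depth; estimated reads use the longest GENCODE transcript. Of the 45 genes, 22 are written out in full: per role the 2 with the largest and the 1 with the smallest GC difference as the mean of genotypes, any gene past the threshold, and the 2 highest and 2 lowest interactions; per pathway list, the 2 largest. Alternatives were another pseudocount, no filter, no replicate block, centring, averaged tables, another promoter window, and leaving out batch 3 or each library. Members, lists and rules were chosen with earlier results of these data known. The code was tested on simulated data. One marker is not reported here.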

Additional observations from a re-analysis of the deposited data

Results flagged for a closer look

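Cenpa was singled out because its GC differences ran in opposite directions in the 2 genotypes in every batch, higher in GC cells in all 3 Sle1b pairs and lower in all 3 Ifnar1KO pairs. The 2 mean differences lay 2.02 apart on the log2(FPKM + 1) scale. Equivalently, its genotype difference was above 0 in all 3 non-GC pairs and below 0 in all 3 GC pairs, again 2.02 apart. With all batches the interaction had an unadjusted p of 0.02 and a limma adjusted p of 0.992, so a difference between genotypes was not established. Without batch 3 it was -1.73 (SE 0.7, limma unadjusted p = 0.0362, adjusted p = 0.918). These p-values come from the same values that singled the gene out.

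Nek2, a centrosome kinase, was singled out because Ifnar1KO lay above Sle1b in all 3 non-GC pairs and below it in all 3 GC pairs, 2.30 apart. Its values were 0.097, 0.475 and 0 FPKM in Sle1b non-GC, 0.312, 0.685 and 3.01 in Ifnar1KO non-GC, 7.25, 15.7 and 1.69 in Sle1b GC and 1.56, 5.6 and 0 in Ifnar1KO GC, so the non-GC side rests on values below 1 FPKM in batches 1 and 2. The interaction had an unadjusted p of 0.0483 and a limma adjusted p of 0.992 with all batches. Without batch 3 it was -1.74 (SE 0.925, limma unadjusted p = 0.0939, adjusted p = 0.918). Here too the p-values come from the values that singled the gene out. Nek2 was written out after its values were seen.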

How the results depend on the processing

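The median GC difference over the tested members stayed above 0 under every alternative run. It lay between 1.59 and 2.75 in Sle1b, 1.02 and 2.13 in Ifnar1KO and 1.54 and 2.07 as their mean when each library was left out in turn. Every alternative kept most or all libraries of batches 1 and 2, so these runs cannot show that the direction recurs in batch 3. In the batch 3 pairs the member median was 0 in both genotypes. The calls did not hold. For GC against non-GC, mean of both genotypes, 4 genes passed (2 members). It was 1 (0 members) with a pseudocount of 0.1, 1 (0) without the filter and 0 (0) without the replicate block. With libraries centred on their median 21 passed (16 higher and 5 lower, 3 members). With tables averaged 58 passed (12 higher and 46 lower, 3 members). Both of these settings called Ckap2l, Mki67 and Tpx2. Without batch 3, 562 (29) passed with the filter redone and 1 (1) with it kept, a setting chosen after seeing the data. Leaving out libraries gave 1 to 10 genes and 0 to 3 members. Mki67 passed in 4 of 12 such fits (4.26 to 5.12, adjusted p 0.00651 to 0.167), each without a batch 3 library, and Tpx2 in 1 of 12 (3.00 to 3.49, adjusted p 0.047 to 0.167), the one without the Ifnar1KO GC library. In Sle1b 0 genes passed, 7 (2 members) without batch 3, and 0 to 1 when libraries were left out (0 members). In Ifnar1KO 1 passed, 0 without the replicate block, 3 with tables averaged, 38 (2 members) without batch 3, 0 with its filter kept, and 0 to 2 when libraries were left out (0 members). For Ifnar1KO against Sle1b in GC cells 0 passed, 1 (no member) without batch 3 and 0 to 1 when libraries were left out, and for the interaction 0 to 1; in non-GC cells 0 passed in all. The median member difference of Ifnar1KO against Sle1b changed sign: in GC cells it was -0.27, 0.12 with centring and -0.84 to 0.35 when libraries were left out, and in non-GC cells 0.14, 0.61 with a pseudocount of 0.1 and -0.43 to 0.63. Centring moved the median of all genes from -0.25 to 0.05 (GC, mean of genotypes) and from -0.25 to 0.13 (genotype, GC); the members' distance from it stayed at 1.97 and -0.01. The replicate block is the batch, since replicate and batch numbers coincide. The cause was not tested, except that the filter and the samples left out change how many genes and libraries enter. In a promoter window of 150 bases before to 50 after the start, member shares of TTTGAA (78.6%) and CCAAT (76.2%) were as before, that of TTTAAA was 14.3% in place of 21.4%, and the shares in tested genes were lower (TTTGAA 7.8% in place of 13.5%, CHR with CCAAT 3.8% in place of 8.2%). Depth limits the zeros: 155 of 540 member values were 0, and 3 reads would give 0.0414 to 0.644 FPKM there.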
